A study of Mus musculus with 3 samples.

Results

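The genes described here are 40 of the 30905 genes in the count files, chosen by symbol as genes of S phase and of G2 and mitosis, and each symbol was found once. By role they fall into 24 genes of G2 and mitosis (G2/M), 12 genes of S phase, and 4 genes (Stmn1, Tubb5, Smc2 and Smc4) that dividing cells use but resting lymphocytes also transcribe. They were followed in cells of the mouse colon that carried the leukocyte antigen CD45 and were sorted by flow cytometry, in 3 libraries of 1 library each. Library C came from healthy colon of C57BL/6 mice. Libraries T1 and T3 came from C57BL/6 colon with low-grade and with high-grade intraepithelial neoplasia, after azoxymethane (AOM, a carcinogen) at 12 mg/kg and cycles of 2.5% dextran sulphate sodium (DSS, which injures the colon lining) for 7 days followed by water for 14 days. The labels give neither agent for C, so neoplasia and treatment cannot be told apart, and they do not say how many mice went into a library. With 1 library per group there is no replicate, so no p-value is given, and every interval below is a 95% interval that covers counting error only.

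A cell that divides first copies its DNA in S phase and then builds a spindle and separates its chromosomes in mitosis. The MCM proteins form the helicase that opens DNA at replication origins, and cyclin-dependent kinase 1 (Cdk1) with cyclins A2, B1 and B2 drives entry into mitosis. In mucosal tissue of the gut, B cells divide fast in the germinal centres of lymphoid follicles, where they mutate and select their receptors, whereas most other mature lymphocytes rest until an antigen activates them.

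Transcription of the mitotic genes is tied to a pair of short promoter elements, the cell cycle homology region (CHR) bound by the DREAM and MuvB complexes and the CCAAT box bound by NF-Y, while many S phase genes carry E2F sites. The promoters of 6 members are printed because the results below turn on these genes or on how they differ. RefSeq promoters (build GRCm38.p6) were found for 33 of the 40 members, with 34 promoters in all, and were not found for Ccna2, Stmn1, Mcm4, Aurkb, Kif20a, Tpx2 and Smc4. Each line gives 120 bases before and 30 bases after the annotated start, 5′ to 3′ along the gene. Capitals mark matches on either strand to CCAAT, to the CHR letters TTTGAA or TTCGAA, or to the E2F letters TTTGGCGC, TTTCGCGC, TTTCCCGC or TTTGGCGG, and in Mcm6 a pair of E2F matches overlap.
Ccnb2: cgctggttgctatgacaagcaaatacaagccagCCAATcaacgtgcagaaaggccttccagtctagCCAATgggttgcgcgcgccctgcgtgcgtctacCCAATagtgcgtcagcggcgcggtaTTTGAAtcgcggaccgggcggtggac
Cdk1: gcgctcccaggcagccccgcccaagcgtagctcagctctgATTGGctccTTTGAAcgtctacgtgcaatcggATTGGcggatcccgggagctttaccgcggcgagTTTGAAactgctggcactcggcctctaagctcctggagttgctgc
Top2a: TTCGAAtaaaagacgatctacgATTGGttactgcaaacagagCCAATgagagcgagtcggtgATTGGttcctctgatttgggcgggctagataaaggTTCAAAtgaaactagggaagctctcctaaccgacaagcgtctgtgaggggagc
Ube2c: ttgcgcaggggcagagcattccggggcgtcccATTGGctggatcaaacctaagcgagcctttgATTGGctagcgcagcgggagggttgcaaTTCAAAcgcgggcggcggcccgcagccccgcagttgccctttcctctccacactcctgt
Cenpa: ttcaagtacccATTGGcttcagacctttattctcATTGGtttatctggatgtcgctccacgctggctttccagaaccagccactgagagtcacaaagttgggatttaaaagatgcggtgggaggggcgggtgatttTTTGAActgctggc
Mcm6: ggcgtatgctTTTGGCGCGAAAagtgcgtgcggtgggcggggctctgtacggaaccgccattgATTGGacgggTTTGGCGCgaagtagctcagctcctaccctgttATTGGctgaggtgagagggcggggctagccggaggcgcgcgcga

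The stretches lie at chr9:70421525-70421674 on the minus strand for Ccnb2, chr10:69352883-69353032 on the minus strand for Cdk1, chr11:99024160-99024309 on the minus strand for Top2a, chr2:164769809-164769958 on the plus strand for Ube2c, chr5:30666766-30666915 on the plus strand for Cenpa and chr1:128359676-128359825 on the minus strand for Mcm6. Over windows of 300 bases (250 before and 50 after the start), a CHR match was present in 16 of 20 promoters of G2/M members (80%), 2 of 12 promoters of S members (16.7%) and 19.2% of all 32851 promoters in the table. A CCAAT match was present in 18 of 20 G2/M promoters (90%), 10 of 12 S promoters (83.3%) and 37.4% of all promoters. E2F letters were present in 1 of 20 G2/M promoters (5%), 5 of 12 S promoters (41.7%) and 2.37% of all promoters. The promoter of Cenpa, which encodes the histone H3 variant of the centromere, held CCAAT and CHR matches and no E2F match, as did that of Ccnb2, although its transcript was spread over cells very differently. The promoter of Cdk1 held an E2F match as well, 131 bases before the start and outside the stretch printed. These matches are descriptions of letters, and binding at them was not measured here.

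The 3 libraries held 7903, 8566 and 5779 barcodes (C, T1 and T3, the order used throughout) and 35489195, 37208603 and 15898397 unique molecular identifiers (UMIs, each a counted transcript). After filters on detected genes and on mitochondrial UMIs, 6004, 6143 and 4543 barcodes remained, with median depths of 4933, 5272 and 1803 UMIs, so T3 was the shallowest. Ptprc, which encodes CD45, had a UMI in 88.8%, 86.9% and 75.2% of them. Haemoglobin and Alas2 transcripts, typical of red cell precursors, summed to 20.7, 3.58 and 13699 CPM (counts scaled to 1000000 UMIs of the library or lineage). In B barcodes of the germinal centre they stood at 62.8 CPM in C and 49.0 CPM in T1, against 2.79 and 3.67 CPM in other B barcodes. In T3 they reached 2890 CPM in T barcodes and 1292 CPM in B barcodes outside the germinal centre. The part of that in the T3 results was not tested. The labels call the mice male, yet Xist stood at 1284, 1196 and 1361 CPM and 4 Y-linked genes had 0, 1 and 1 UMIs, which goes against that label in all 3 libraries. From 35 to 39 barcode strings were shared by each pair of libraries, and none were removed.

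Barcodes were assigned to lineages by marker genes, none of which is a member. B barcodes (by B cell markers such as Cd79a, Cd79b and Ms4a1) numbered 3088, 3263 and 1052 and T barcodes (Cd3d, Cd3e or Cd3g) numbered 1995, 1983 and 1720. Germinal centre barcodes were B barcodes with at least 2 of 7 germinal centre markers, and they numbered 183, 111 and 10. Of these, 89.1%, 81.1% and 60% had Mef2b, a transcription factor of germinal centre B cells. Plasma barcodes, with Jchain and other secretory cell markers, numbered 86, 71 and 3. Within T, barcodes with Cd4 numbered 407, 834 and 537, those with Cd8b1 338, 317 and 383, those with Trdc (the γδ receptor) 307, 103 and 41, and those with none of the 3 genes 884, 665 and 694. Barcodes with Foxp3, the regulatory T cell factor, numbered 60, 271 and 68 and overlap the other T groups.

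Transcripts of mitosis lay mainly in germinal centre barcodes in C, and less so in T1 and T3. The 23 G2/M members other than Cenpa gave 7696, 4685 and 955 UMIs. Germinal centre barcodes were 3.05%, 1.81% and 0.220% of barcodes and had 6.80%, 3.03% and 0.407% of all UMIs. They held 63.1% [62.0, 64.2], 32.0% [30.7, 33.4] and 20.5% [18.0, 23.2] of the G2/M UMIs. T barcodes held 10.3%, 28.6% and 47.3% of them, against 33.2%, 32.3% and 37.9% of barcodes and 36.8%, 38.2% and 57.9% of all UMIs. The T barcode share of G2/M UMIs thus lay below that of all UMIs in each library, T3 included. B barcodes outside the germinal centre, the most numerous group in C and T1, held 9.90%, 18.0% and 14.9%. The order of the lineages thus differed between the libraries: germinal centre barcodes held the most in C and T1, and T barcodes the most in T3.

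**Figure D1:**
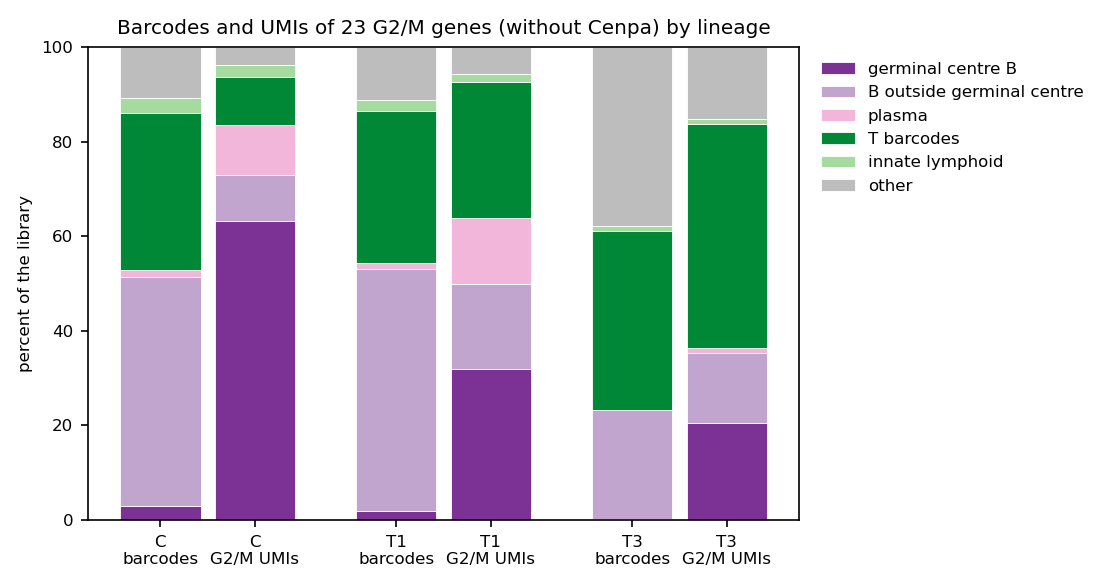
Percent of barcodes (left bar of each pair) and percent of UMIs of 23 G2/M genes without Cenpa (right bar) by lineage in C, T1 and T3, with "other" for all remaining barcodes. Germinal centre B barcodes are a thin slice of barcodes and hold 63.1% of the UMIs in C, 32.0% in T1 and 20.5% in T3.

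To count G2/M members at one depth, barcodes with at least 1000 UMIs were thinned to 1000. A barcode was counted as cycling when it then had UMIs of 2 or more different G2/M members. This left out 423, 485 and 1198 barcodes, so the shares, most of all in T3, cover the deeper barcodes only. The lineage gates were set before thinning. In germinal centre barcodes 64 of 182 (35.2%), 33 of 111 (29.7%) and 4 of 10 (40%) were cycling. In B barcodes outside the germinal centre the share was 0.537%, 0.796% and 0.351% (15, 24 and 3 barcodes), and in T barcodes 0.555%, 1.17% and 0.501% (11, 23 and 8 barcodes). Without Cenpa, which resting cells also carried, the germinal centre share was 34.6%, 27.0% and 40%, while the share outside it was 0.286%, 0.133% and 0.117% and the share in T barcodes 0.303%, 0.560% and 0.313%. In each library the interval of the germinal centre share lay above those of both other groups. At full depth, 61.7%, 55.9% and 70% of germinal centre barcodes had 3 or more of the 23 genes, against 0.516%, 0.286% and 0.0960% of the other B barcodes. Neutrophils, which do not divide once mature, had 0 cycling barcodes of 73 in T3, which allows a share of up to 4.11% (3 counts of the total, the limit given here for every count of 0).

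**Figure D2:**
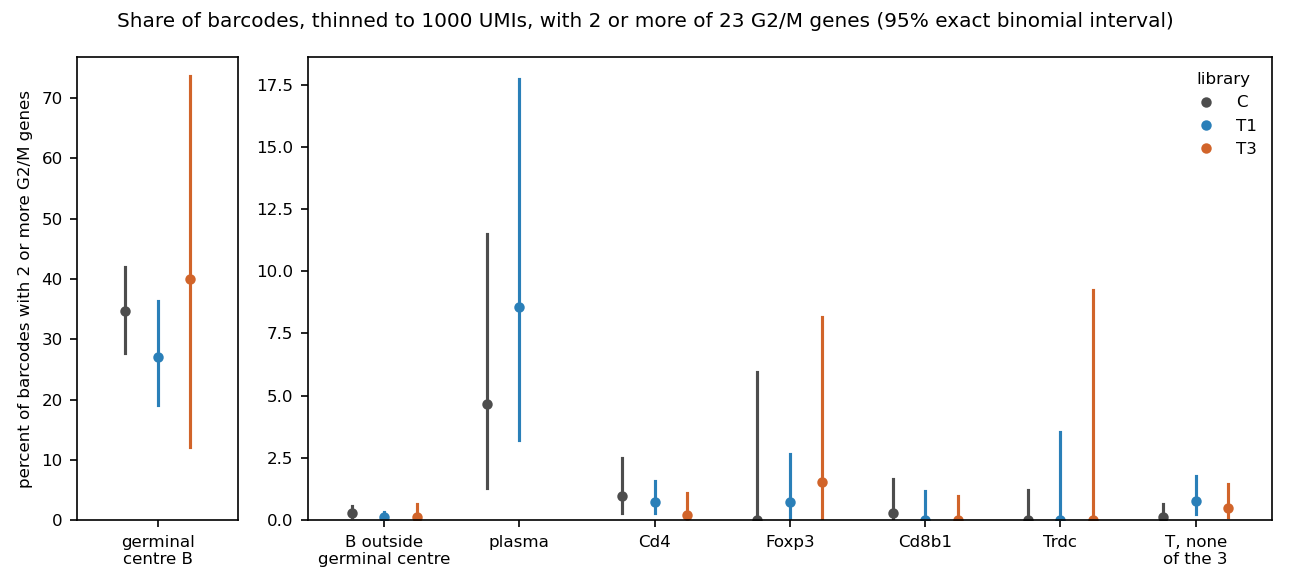
Percent of barcodes, thinned to 1000 UMIs, with 2 or more of 23 G2/M genes (Cenpa not counted) in each lineage, with 95% exact binomial intervals, in C, T1 and T3; the left panel has its own scale, and plasma barcodes of T3 (3 in number) are not drawn. Germinal centre B barcodes lie between 27.0% and 40%, and B barcodes outside the germinal centre between 0.117% and 0.286%.

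Within germinal centre barcodes the mitotic genes were at high levels in every library. Mki67, the proliferation antigen that coats mitotic chromosomes, stood at 267, 193 and 584 CPM, against 5.29, 4.18 and 0.594 CPM in the other B barcodes. Ccnb2, cyclin B2, stood at 142, 86.5 and 189 CPM, against 1.18, 0.886 and 2.97 CPM outside. Top2a, the topoisomerase that untangles chromosomes, stood at 241, 203 and 412 CPM, against 18.8, 19.9 and 13.4 CPM. For all 3 genes T1 was the lowest germinal centre library and T3, with only 10 barcodes, the highest. Among S members, Pclaf, a partner of the replication clamp, stood at 531, 484 and 550 CPM inside the germinal centre gate and at 1.98, 5.82 and 0 CPM outside it. Its levels inside the gate lay closer together than those of the mitotic genes.

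The germinal centre barcodes of T1 had somewhat fewer mitotic transcripts than those of C, and about as many S phase transcripts. The summed G2/M level without Cenpa was 2150 CPM in C and 1440 CPM in T1, a log2 ratio of -0.58 [-0.66, -0.49], and the summed S level was 2410 and 2176 CPM, a log2 ratio of -0.15 [-0.22, -0.08]. By a rule of size (CPM at least 2-fold apart, at least 100 UMIs over both libraries, and an interval that excludes equality), 2 of 36 members with enough UMIs were lower in T1 and 0 were higher, where 0.724% and 0.233% of all 3870 genes measured were called lower and higher. Both act late in mitosis or at its entry: Cdc20, which activates the ubiquitin ligase that starts anaphase, was at 124 and 52.8 CPM, and Ccna2, cyclin A2, was at 78.3 and 37.5 CPM. Ccnb1, cyclin B1, came close at 67.7 and 34.6 CPM. All 20 G2/M members measured had a lower level in T1, as had 10 of 12 S members and 4 of 4 of those also found in resting cells. The share of all genes with a lower level of any size is not given here, so these counts are not read as particular to the members. At the S end, Mcm7 was at 212 and 208 CPM and Rrm2, the inducible subunit of the enzyme that makes deoxynucleotides, at 162 and 155 CPM.

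Only 10 barcodes fell into the germinal centre gate in T3, and 1 of them held 109 of their 196 G2/M UMIs (55.6%). By the rule of size 6 of 35 members were higher in T3 than in C (Mki67, Cenpe, Cenpf, Kif23, Tpx2 and Hmmr, all of chromosome movement or the spindle except Mki67) and Ube2c, a ubiquitin-conjugating enzyme of anaphase, was lower. The same rule called 8.28% of all genes higher and 3.37% lower. The summed G2/M level of 3366 CPM against 2150 CPM in C (log2 0.65 [0.43, 0.85]) turned to -2.12 [-2.81, -1.5] when the gate was set on barcodes thinned to 1000 UMIs, and to -0.06 [-0.26, 0.14] when 1 germinal centre marker was enough. The T3 values inside the gate therefore rest on very few cells and on the gate.

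With the germinal centre gate set on all UMIs, the share of B barcodes that passed it differed more between libraries than the share of those that cycled. The T3 cycling share rests on 10 barcodes. Germinal centre barcodes were 5.93% [5.12, 6.82] of B barcodes in C, 3.40% [2.81, 4.08] in T1 and 0.951% [0.457, 1.74] in T3. The gate finds more markers in deeper barcodes, and T3 was shallower, so the gate was also set after thinning each barcode to 1000 UMIs. It then took 58 of 2666 (2.18% [1.66, 2.80]), 30 of 2676 (1.12% [0.758, 1.60]) and 6 of 730 (0.822% [0.302, 1.78]) B barcodes. The order of the libraries held at equal depth, but the T1 and T3 intervals overlap, and those of C and T3 overlap at their ends. The cycling share was not recounted under this thinned gate. The summed G2/M level inside it was far lower in T3 than in C, as given above, so the comparison with cycling is not made at equal depth.

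**Figure D3:**
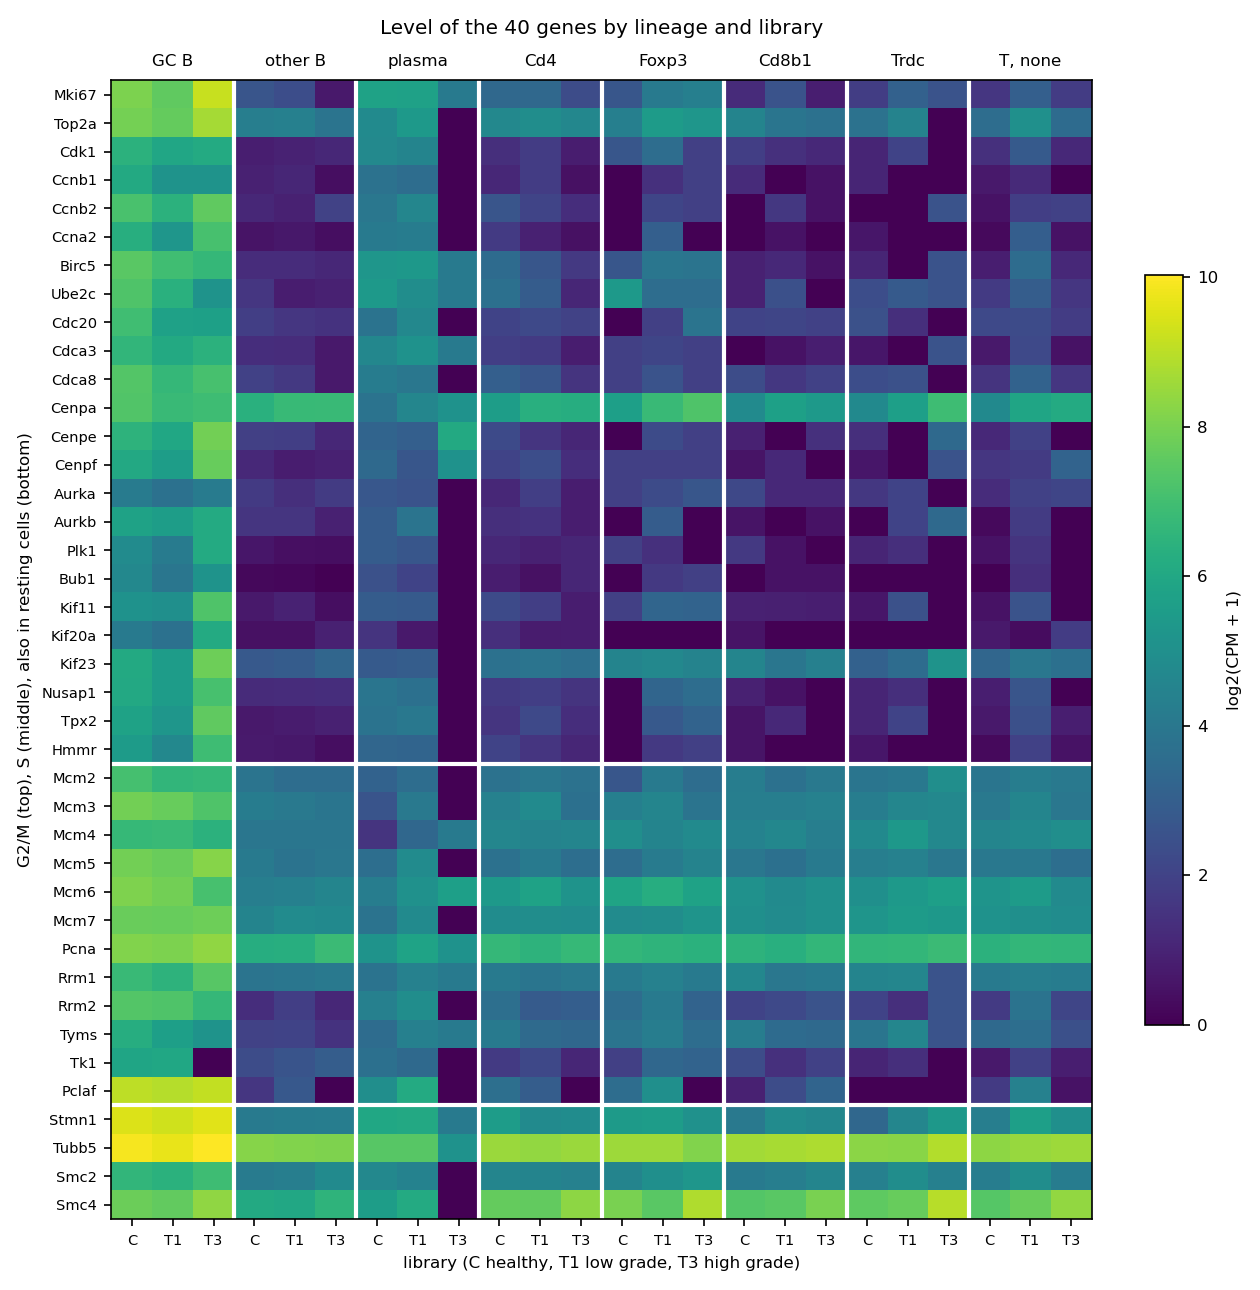
Level of the 40 genes, as log2(CPM + 1), in 8 lineages (column blocks) of the 3 libraries (columns within a block). Germinal centre B barcodes are bright for nearly every gene; outside them and plasma barcodes most G2/M genes except Cenpa are dark, the MCM genes are intermediate, and Pcna, Tubb5 and Smc4 are bright, while the T3 plasma column rests on 3 barcodes.

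The members differed in how strictly they marked barcodes rich in G2/M transcripts. This was measured as the share of a gene's UMIs that lay in barcodes with 3 or more other G2/M members (Cenpa not counted). Cells in S phase with few G2/M transcripts fall outside such barcodes, so a low share of an S member does not place it in resting cells. In C, 154 thinned barcodes had 2 or more S members only, and 36 had 2 or more of both kinds. Barcodes with 3 or more of the G2/M members were 2.78% and 2.0% of barcodes in C and T1 and carried 7.09% and 4.55% of all UMIs. In C, 97.3% of the UMIs of the spindle checkpoint kinase Bub1 lay in them, 95.8% of those of Ccnb2, 94.7% of those of Birc5 (survivin) and 94.4% of those of Ccna2. Among S members, Pclaf (95.5%) and Rrm2 (86.5%) were also concentrated there, but Mcm4 (30.4%), Mcm7 (37.1%), Mcm2 (39.5%) and Pcna, the replication clamp (20.2%), were mostly found elsewhere. In T1 the shares were lower for 40 of 40 members, as for Ccnb2 (82.5%), Mki67 (65.2% against 83.1% in C) and Pclaf (92.3%). The share of all UMIs in such barcodes was lower in T1 as well, and a count over all genes is not given here.

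Among G2/M members, Cenpa (20.2% in C and 7.82% in T1) and Kif23, a kinesin of the cytokinesis furrow (36.3% and 20.4%), were the least confined to these barcodes. Top2a (55.0% and 37.0%) and the spindle pole kinase Aurka (50.5% and 31.8%) came next. Of the 4 genes also found in resting cells, Stmn1, which destabilises microtubules, was the most confined (78.0% and 61.8%), and Smc4, a condensin subunit, the least (14.1% and 8.53%). T3 is not read this way, since only 17 of its barcodes had 3 or more of the 23 genes.

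**Figure D4:**
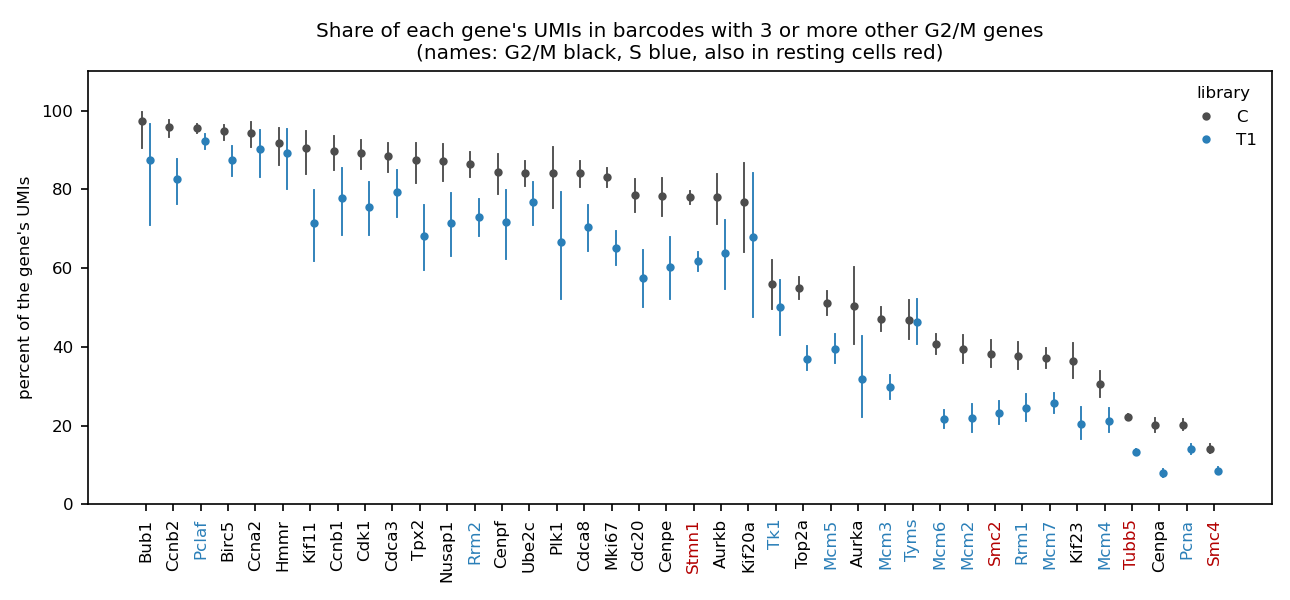
Percent of each gene's UMIs that lie in barcodes with 3 or more other G2/M genes, with 95% exact binomial intervals, in C and T1, ordered by the value in C. Bub1, Ccnb2 and Pclaf lie above 95% in C, and Cenpa, Pcna and Smc4 at or below 20.2%.

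Over all barcodes, members were lower in T3 than in C far more often than other genes, and less so in T1. In T1, 8 of 39 members measured were lower and 0 higher, where 2.27% of all genes measured were lower and 1.19% higher. The 8 were all mitotic: Ccnb1, Ccnb2, Ccna2, Ube2c, Cdc20, Cdca8, Bub1 and Hmmr. In T3, 27 of 38 were lower and 1 (Smc4) higher, against 6.97% and 4.57% of all genes. The lower members of T3 were 20 G2/M genes, 6 S genes (Mcm3, Mcm5, Rrm2, Tyms, Tk1 and Pclaf) and Stmn1. Mki67 stood at 27.4, 14.0 and 4.68 CPM and Ccnb2 at 12.0, 5.50 and 2.59 CPM over all barcodes. In bulk sums of this kind, fewer cycling cells and less RNA per cell cannot be told apart. The share of cycling barcodes was 1.94% (108), 1.66% (94) and 0.508% (17), and the log2 ratio to C was -0.22 [-0.62, 0.18] for T1 and -1.93 [-2.66, -1.19] for T3. For T3 the ratio became -1.06 [-1.95, -0.17] without germinal centre barcodes, and for T1 it turned to 0.43 [-0.12, 0.99]. These shares counted Cenpa, which resting cells also carried. No ratio was computed without both Cenpa and germinal centre barcodes, but the counts are known. Not counting Cenpa, 36 of 5581 thinned barcodes of C had 2 or more S and G2/M members each, and 54 G2/M members only. Germinal centre barcodes made up 32 and 31 of these. In T1 the counts were 25 and 32 of 5658, with 16 and 14 in the germinal centre. In T3 they were 2 and 9 of 3345, with 2 and 2 in it. Those outside the germinal centre were about as many in T1 as in C.

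In B barcodes the mitotic genes were lower in both neoplasia libraries. Mki67 stood at 42.6, 15.9 and 10.5 CPM, Cdk1 at 12.9, 4.63 and 2.34 CPM, and Birc5 at 26.0, 8.85 and 2.92 CPM. C was the highest library for each, and T3 the lowest. Of 37 members measured, 20 were lower in T1 and 0 higher (1.8% and 0.254% of all genes), and of 35 measured, 25 were lower in T3 and 0 higher (3.5% and 2.77% of all genes). The median log2 ratio of the G2/M members with UMIs in both libraries was -1.47 in T1 and -1.68 in T3, beside -0.12 and 0.03 for all genes measured. The median of the S members was -0.78 and -1.23.

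By role, the mitotic cyclins and their kinase were lower in T1 by 2.78-fold (Cdk1), 3.24-fold (Ccnb1), 3.44-fold (Ccnb2) and 4.05-fold (Ccna2). Genes of the anaphase machinery were lower by 4.05-fold (Ube2c) and 3.86-fold (Cdc20). The MCM helicase was lower by less: Mcm2 stood at 30.8, 16.1 and 12.6 CPM (log2 -0.94 and -1.29) and Mcm7 at 48.9, 38.6 and 29.2 CPM (log2 -0.34 and -0.75). Pcna, at 104, 89.7 and 116 CPM, and Tubb5, a tubulin at 389, 311 and 288 CPM, lay within 2-fold of C in both.

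Outside the germinal centre gate this difference was small in T1, and its size in T3 depended on the filter and the gate. The summed G2/M level without Cenpa was 56.0, 53.4 and 42.2 CPM, with a log2 ratio over C of -0.07 [-0.21, 0.07] (T1) and -0.41 [-0.68, -0.15] (T3). For the S members the sums were 202, 210 and 240 CPM, with ratios of 0.06 [-0.01, 0.13] and 0.25 [0.14, 0.36]. By the rule of size 0 of 18 members measured were lower in T1 and 1 was higher (0.77% and 0.287% of all genes), and 0 of 15 were called in T3 in either direction (1.23% lower and 2.53% higher). The 1 higher member was Pclaf, with 27 and 92 UMIs (1.98 and 5.82 CPM). Most G2/M members fell under the UMI minimum here, so only 4 of 24 could be called in T1 and 3 in T3. The T3 ratio was -1.62 [-1.83, -1.41] with the gate set on thinned barcodes and -0.84 [-1.10, -0.59] without the mitochondrial filter. The T1 ratio was -0.32 [-0.48, -0.16] with 1 germinal centre marker as the gate, and -0.99 [-1.08, -0.91] with the gate set on thinned barcodes, which leaves part of the germinal centre outside it. The cycling share of B barcodes changed from a log2 ratio of -0.54 [-1.03, -0.06] in T1 to 0.57 [-0.36, 1.5] without germinal centre barcodes. Cenpa was counted in both ratios, and without it T1 lay below C outside the gate, on few barcodes. Of 2794 such thinned barcodes of C, 8 had 2 or more G2/M members only and 0 had 2 or more S members as well. In T1 these were 3 and 1 of 3016.

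**Figure D5:**
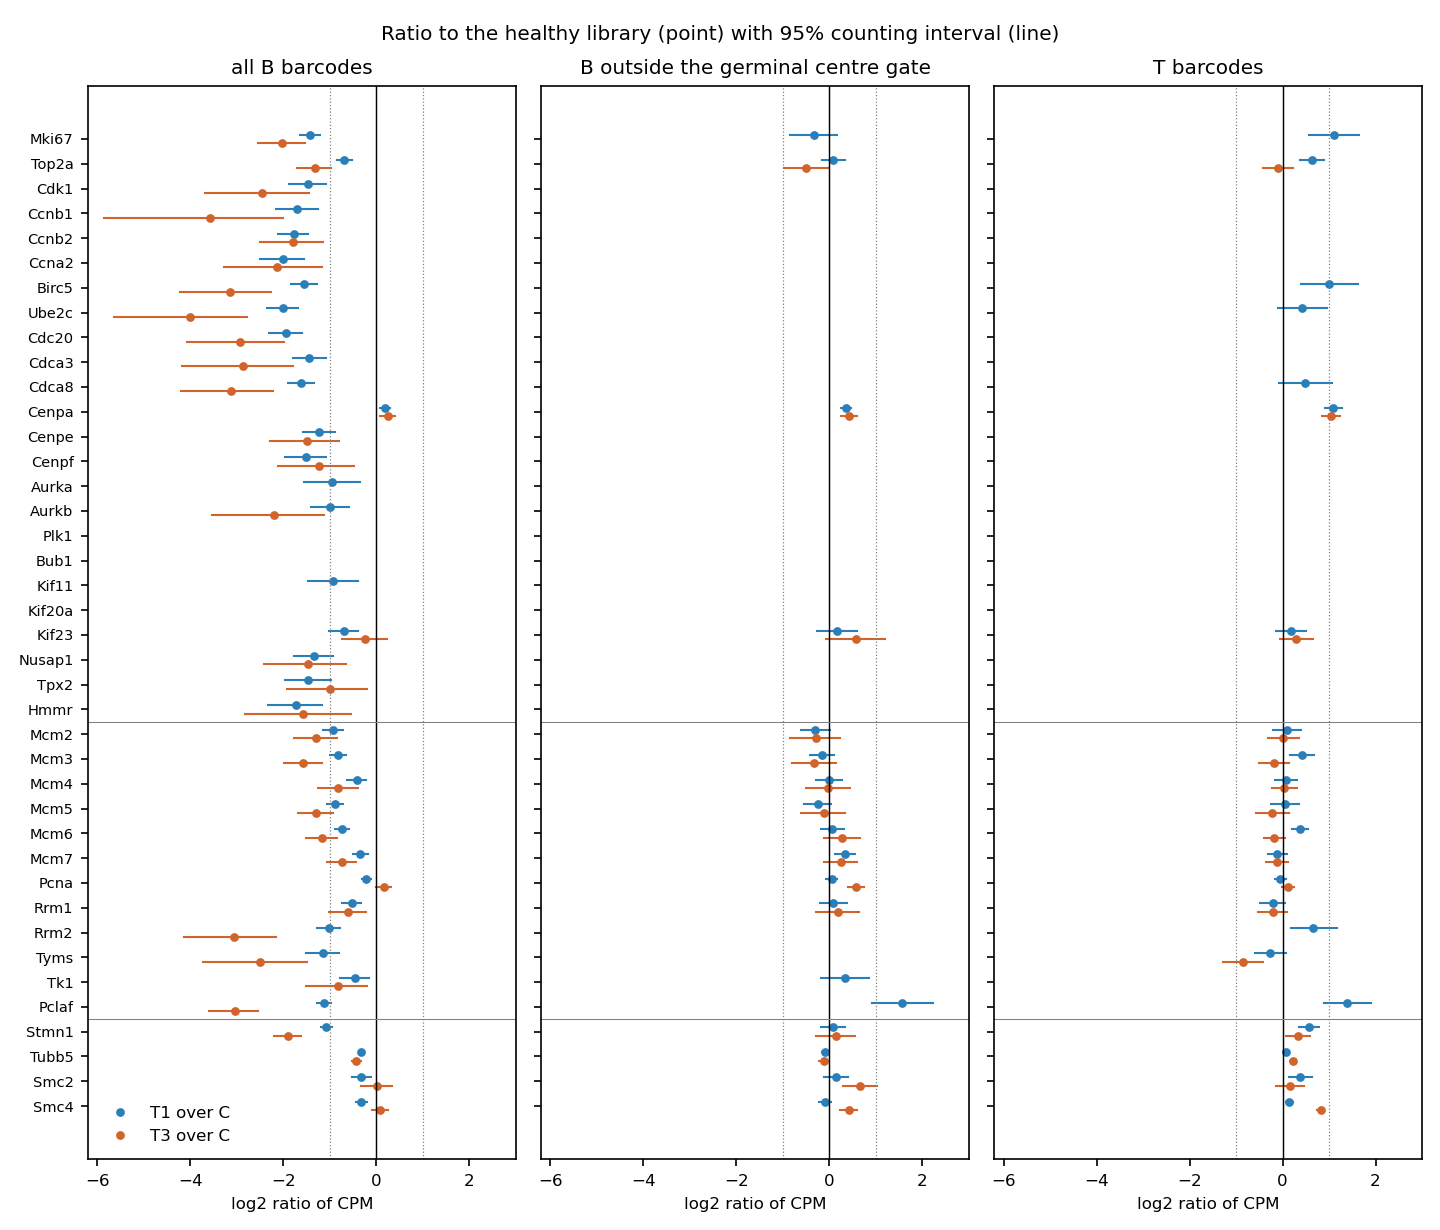
Log2 ratio of CPM to library C (points) with 95% counting intervals (lines) for each member with at least 100 UMIs over both libraries, in all B barcodes, in B barcodes outside the germinal centre gate and in T barcodes; dotted lines mark 2-fold and intervals are drawn to -6.2. In the left panel nearly all G2/M genes except Cenpa lie left of 0, in the middle panel the measured genes lie near 0 except Pclaf in T1, and in the right panel Mki67, Cenpa and Pclaf lie more than 2-fold higher in T1.

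In T barcodes the summed level of the mitotic genes was higher in T1 than in C, while few of them could be called one by one. Top2a stood at 16.8, 26.1 and 15.7 CPM, Mki67 at 3.60, 7.69 and 2.41 CPM, Birc5 at 2.86, 5.71 and 1.33 CPM, and Pclaf at 3.68, 9.59 and 2.78 CPM. T1 was the highest library for each of these. By the rule of size 3 of 22 members measured (Mki67, Cenpa and Pclaf) were higher in T1 and 0 lower (2.05% and 2.16% of all genes). In T3, 1 of 16 (Cenpa) was higher and 0 lower (3.01% and 7.22% of all genes). The summed G2/M level without Cenpa was 64.5, 102 and 54.5 CPM, with a log2 ratio over C of 0.66 [0.53, 0.79] (T1) and -0.24 [-0.41, -0.07] (T3). S members summed to 272, 291 and 262 CPM, a smaller difference (log2 0.10 [0.03, 0.17] and -0.06 [-0.14, 0.02]).

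A few strongly cycling T barcodes carried much of the T1 level. In T1, 11 of 1983 T barcodes with 10 or more G2/M UMIs held 539 of 1338 UMIs (40.3%), and in C 6 of 1995 held 171 of 789 (21.7%). Without these barcodes the levels were 61.5 and 50.8 CPM, and the log2 ratio was 0.28 [0.12, 0.43]. In T3, 5 barcodes held 84 of 452 UMIs (18.6%). The T3 level of 54.5 CPM in T barcodes was close to that of neutrophil barcodes of the same library, 60.6 CPM [33.1, 102] from 14 UMIs, of which 10 were of Kif23. Haemoglobin-rich barcodes of T3 had 104 CPM [71.7, 145].

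Among the T groups that do not overlap, the sums with Cd4 and with none of the 3 genes rested in part on few barcodes. With Cd4 the G2/M sums were 116, 108 and 63.6 CPM, and with none of the 3 genes 41.6, 135 and 52.4 CPM. For Cd4 the log2 ratio to C was -0.11 [-0.31, 0.10] in T1 and -0.87 [-1.15, -0.60] in T3. However, 5 Cd4 barcodes of C held 160 of its 306 UMIs (52.3%). Without barcodes of 10 or more G2/M UMIs the Cd4 levels were 56.8, 68.8 and 50.4 CPM, with ratios of 0.27 [-0.0038, 0.56] and -0.17 [-0.52, 0.17]. For barcodes with none of the 3 genes it was 1.70 [1.46, 1.94] and 0.33 [0.01, 0.66], but 3 barcodes held 309 of the 518 UMIs in T1 (59.7%). Without barcodes of 10 or more such UMIs their levels were 41.6, 55.1 and 39.2 CPM, with ratios of 0.41 [0.12, 0.69] and -0.08 [-0.45, 0.27]. Barcodes with Cd8b1 had 69.8, 54.5 and 46.5 CPM and those with Trdc 48.4, 72.2 and 84.1 CPM (94, 47 and 17 UMIs). Of these, 0, 0 and 1 with Cd8b1 and 1, 0 and 0 with Trdc had 10 or more such UMIs. For Cd8b1 the ratios were -0.36 [-0.70, -0.02] in T1 and -0.59 [-0.94, -0.23] in T3, and -0.36 and -0.76 [-1.13, -0.39] without such barcodes. For Trdc they were 0.58 [0.04, 1.10] and 0.80 [-0.04, 1.55], and 0.75 [0.20, 1.28] and 0.97 [0.12, 1.73] without them.

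Foxp3 barcodes had 115, 191 and 174 CPM of G2/M transcripts, from 42, 348 and 64 UMIs, a log2 ratio over C of 0.73 [0.27, 1.23] (T1) and 0.60 [0.02, 1.20] (T3). In T1 1 barcode held 113 of the 348 UMIs (32.5%), and in T3 1 barcode held 26 of the 64 (40.6%). Without barcodes of 10 or more such UMIs the levels were 90.4, 86.9 and 105.8 CPM, and the ratios -0.06 [-0.61, 0.54] and 0.23 [-0.49, 0.95]. Cycling barcodes, Cenpa counted, were 0 of 60, 7 of 269 (2.6%) and 1 of 66 with Foxp3, and 7 of 406 (1.72%), 15 of 832 (1.8%) and 3 of 518 (0.579%) with Cd4. They were 3 of 337, 1 of 314 and 0 of 373 with Cd8b1, and 0 of 306, 1 of 102 and 0 of 38 with Trdc. A count of 0 of 306 allows a share of up to 0.980%, and a count of 0 of 373 one of up to 0.804%.

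Plasma barcodes included a few rich in G2/M transcripts. The plasma gate set no limit on B or T markers, and whether these barcodes were doublets was not tested. Without Cenpa, 4 of 86 in C (4.65% [1.28, 11.5]) and 6 of 70 in T1 (8.57% [3.21, 17.7]) were cycling, and 0 of 3 in T3. Their G2/M sum was 375 and 398 CPM in C and T1, and 5 barcodes held 86.9% and 88.2% of it. The S members summed to 178 and 326 CPM, where Pclaf alone stood at 30.4 and 68.8 CPM. Innate lymphoid barcodes, outside the B and T gates and with at least 2 of 6 innate lymphoid markers, had 156, 105 and 63.7 CPM of G2/M transcripts, and 1 barcode held 43.2% of them in C.

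Cenpa moved apart from the other mitotic genes. In T barcodes it stood at 30.8, 65.8 and 63.7 CPM, with a UMI in 13.0%, 26.5% and 21.5% of barcodes, and T1 exceeded C by 1.09 [0.92, 1.27] and T3 by 1.05 [0.86, 1.24] on the log2 scale. In B barcodes outside the germinal centre it stood at 82.6, 106 and 110 CPM (log2 0.36 [0.25, 0.47] and 0.42 [0.25, 0.59]). It was higher in T1 and T3 with Cd4 (46.7, 78.7 and 75.2 CPM), Cd8b1 (26.5, 50.8 and 42.1 CPM) and Foxp3 (49.2, 111 and 155 CPM). Inside the germinal centre gate it stood at 159, 110 and 120 CPM, with a log2 ratio over C of -0.52 [-0.84, -0.22] (T1) and -0.40 [-1.73, 0.66] (T3). Neutrophil barcodes of T3 had 8.66 CPM of Cenpa (2 UMIs).

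Smc4 was the only member called higher over all barcodes, at 122, 125 and 244 CPM. In T barcodes it stood at 179, 198 and 315 CPM (log2 0.82 [0.74, 0.90] in T3), and in B barcodes outside the germinal centre at 68.2, 63.9 and 90.9 CPM. Both lay within 2-fold of C. It was called higher in T3 with Trdc (184, 209 and 495 CPM, 100 UMIs in T3) and in innate lymphoid barcodes (96.6, 90.7 and 255 CPM, 36 UMIs in T3). T barcodes had 36.8% of all UMIs in C and 57.9% in T3, and the part of that in the call over all barcodes was not tested. The share of barcodes with a Smc4 UMI was 49.7%, 55.0% and 56.9% in T barcodes. Its condensin partner Smc2 stood at 18.5, 24.1 and 20.6 CPM in T barcodes and did not follow it. Over all barcodes without the mitochondrial filter, 0 members were called higher in T3.

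S and G2/M transcripts marked partly different barcodes. In thinned germinal centre barcodes of C, 43 had 2 or more S members only, 31 had 2 or more G2/M members only (Cenpa not counted) and 32 had both. In T1 these were 31, 14 and 16. Outside the germinal centre the S criterion was met by 33 B barcodes of C, of which 0 also met the G2/M criterion, and by 63 T barcodes, of which 2 did. In T barcodes the share that met the S criterion was 3.18%, 2.95% and 2.44%, without the T1 excess that the G2/M criterion showed on few barcodes.

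Other genes of the cell cycle, from lists that the members do not enter, were counted in the same way. In B barcodes 4 of 18 other S phase genes were lower in T1 (Gins2, Dtl, Uhrf1 and Cdc6) and 8 of 17 measured in T3, and 0 were higher. Of all genes measured in B barcodes, 1.8% were lower and 0.254% higher in T1, and 3.5% lower and 2.77% higher in T3, which holds for every list named here. Of other G2/M genes, 5 of 11 were lower in T1 and 5 of 10 in T3, among them Cks1b, a subunit of cyclin-dependent kinases, at 31.1, 12.6 and 8.17 CPM. Of the G1 cyclins, their kinases and the E2F factors, 0 of 13 were called in T1 and 1 of 12 in T3, E2f1, which was lower. Of the inhibitors of cyclin-dependent kinases, Cdkn3 was lower in both (10.7, 3.74 and 1.17 CPM) and Cdkn2c in T3. The antiproliferative genes of resting lymphocytes gave 0 calls of 9 in T1 and 1 in T3, Tob2, which was higher at 170, 217 and 345 CPM.

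In T barcodes few of these genes were called, where 2.05% of all genes were higher and 2.16% lower in T1, and 3.01% and 7.22% in T3. Prc1, which bundles the microtubules of the anaphase spindle, was higher in T1 (2.21, 5.86 and 4.22 CPM), as was Cdkn1a, the inhibitor p21 (23.4, 62.7 and 17.5 CPM, log2 1.42 [1.23, 1.62] in T1). In T3 Rfc2, a subunit of the clamp loader (56.3, 43.2 and 27.0 CPM), and Cdkn2c (13.2, 13.6 and 5.19 CPM) were lower. Cyclin D2 (Ccnd2), of the G1 phase, stood at 319, 273 and 331 CPM and Cdkn1b, the inhibitor p27, at 129, 169 and 192 CPM, both within 2-fold of C.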

How the data were processed

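The 3 libraries made with a droplet 3′ kit from sorted CD45+ colon cells were analysed, 1 per group. The values are UMI counts per gene and barcode, deposited by the authors without normalization, per the file headers and the whole numbers in them. Tools listed, without roles, in the submitters' processing notes are Cell Ranger 3.1.0, CASAVA 1.8 and Seurat 3.1.4, with the build GRCm38, and strand or intron counting is not given in the sources used here. Of the members, 8 share exon bases with a gene on the opposite strand (GENCODE M21) and 0 with one on the same strand.

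Barcodes under 200 genes (164, 292 and 173) or over 20% mitochondrial UMIs (1735, 2131 and 1063 of the rest) were left out. Lineages were gated on markers: 2 or more B or T UMIs and more than 3 times the other kind (147, 134 and 129 mixed barcodes were set aside), 2 of 7 germinal centre markers, 4 of 7 plasma markers with 20 UMIs, 2 of 6 innate lymphoid and 3 of 4 neutrophil markers, and 50 haemoglobin or Alas2 UMIs. These cut-offs were set with the data in view. No doublet caller was run, so doublets of one lineage remain. Doublets of different lineages also remain where one kind of marker dominates, and in plasma barcodes, whose gate set no limit on B or T markers. Levels are summed UMIs of a gene per 1000000 UMIs of the lineage (CPM) with exact Poisson intervals. Ratios have exact conditional intervals, shares Clopper-Pearson intervals (a count of 0 is given the limit of 3 counts of the total), and log2 ratios of shares normal intervals on the log scale. Thinning drew UMIs without replacement. All 40 members are accounted for, with values for those needed to describe their group. The members and lists were chosen with earlier results of these data known. Alternatives are given in the closing section. Python 3.11.15 with NumPy 2.4.6, SciPy 1.17.1 and pandas 2.3.3 was used. A count of 0 per-sample columns was left unused.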

Additional observations from a re-analysis of the deposited data

Results flagged for a closer look

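The summed level of the 23 G2/M members without Cenpa differed in direction between lineages. In T1 against C the log2 ratio was -1.35 [-1.42, -1.28] in B barcodes and 0.66 [0.53, 0.79] in T barcodes. Of the members, 20 had an interval below 0 in B and above 0 in T barcodes. The share of all genes with such intervals was not computed, so this count is not read as particular to the members. The difference between the lineages was not tested, since each group is 1 library. In B barcodes outside the germinal centre gate the ratio was -0.07, and in T barcodes without those of 10 or more G2/M UMIs it was 0.28.

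In C and T1 the barcodes left out for more than 20% mitochondrial UMIs had a higher G2/M level than those kept, and in T3 a similar one. Their S level was higher than in those kept in T1 but not in C or T3. In T1 their S members summed to 455 CPM [429, 481], beside 360 CPM [335, 387] for C and 253 CPM [225, 283] for T3, so that T1 lay above C, whereas in the barcodes kept it lay below (384, 311 and 255 CPM). Their G2/M sum without Cenpa was 601, 431 and 69.0 CPM, against 231, 136 and 66.7 CPM in the barcodes kept. Germinal centre barcodes were 62 of 1735 and 51 of 2131 of them in C and T1 and held 30.9% and 41.0% of the G2/M UMIs. Barcodes with 2 or more epithelial markers held 7.30% and 0.0892%.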

How the results depend on the processing

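No paired analysis was possible because each group is 1 library. For the same reason no replicate could be left out. Leaving out germinal centre barcodes, not counting Cenpa, other gates and leaving out barcodes of 10 or more G2/M UMIs were chosen after seeing the data. Of the values that answer a comparison, 144 settings kept the main value within its counting interval, or the count within 1.5 times. Another 36 moved it and 4 turned its sign. For single members, Cd4 and Foxp3 barcodes, and T1 barcodes with none of the 3 genes, 576 kept it, 22 moved it and 1 turned it. The T3 ratio with none of the 3 genes, which turned from 0.33 to -0.083, is outside these counts, as are Cd8b1 and Trdc. A sign was counted as turned only where the main interval excluded equality. Other changes of sign were counted as moved or kept.

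The log2 ratio of cycling shares in all barcodes, T1 to C, was -0.22, and -0.77 with 3 or more members, -0.68 without Cenpa and 0.43 without germinal centre barcodes. For T3 it was -1.93, and -3.09 with 3 or more members, -0.64 with S members and -1.06 without germinal centre barcodes. In B barcodes of T1 it was -0.54, and -1.23, -1.13 and 0.57 with 3 or more members, without Cenpa and without germinal centre barcodes. The values without germinal centre barcodes still counted Cenpa. In T barcodes of T1 the log2 ratio was 1.08, and 2.6 with 3 or more members and -0.11 with S members. The first 2 of these T values rest on few barcodes and count Cenpa. Not counting Cenpa, 4 of 1982 thinned T barcodes of C had 2 or more G2/M members only and 2 had 2 or more S members as well. In T1 these were 8 and 3 of 1963.

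Each count of members called is followed by the share of all genes called under the same setting. Without germinal centre barcodes, members called in all barcodes of T1 went from 0 to 1 higher (1.12%) and from 8 to 0 lower (2.06%), and in T3 from 27 to 7 lower (5.34%). In B barcodes of T1 they went from 0 to 1 higher (0.287%) and from 20 to 0 lower (0.77%), and in T3 from 25 to 0 lower (1.23%). A 1.5-fold limit gave 18 lower in all barcodes of T1 (7.12%), and centring on the median of all genes gave 4 (1.75%). Without the mitochondrial filter 0 instead of 1 were higher in all barcodes of T3 (4.82%). In T barcodes of T1, 9 were higher with at least 20 UMIs (3.13%), 9 with no minimum (2.68%) and 6 with a 1.5-fold limit (4.91%), in place of 3. In T barcodes of T3, 0 instead of 1 were higher with mixed barcodes kept (2.98%) and 2 with a 1.5-fold limit (9.61%). In place of 0 lower there were 2 with at least 20 UMIs (10.1%), 2 with no minimum (7.79%) and 1 with a 1.5-fold limit (20.4%).

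The log2 ratio of summed G2/M levels in germinal centre barcodes of T1 was -0.58, and -1.02 with 1 marker, -0.38 with gates on thinned barcodes and -0.41 without the mitochondrial filter. In T3 it was 0.65, and -0.058 with 1 marker and -2.12 with thinned gates. Outside the germinal centre it was -0.07 in T1, and -0.32 with 1 marker, -0.99 with thinned gates and 0.13 with 3 marker UMIs. In T3 it was -0.41, and -1.62 with thinned gates and -0.84 without the mitochondrial filter. In T barcodes of T1 it was 0.66, and 0.99 with thinned gates and 0.28 without barcodes of 10 or more G2/M UMIs. Without such barcodes the ratio turned from 0.73 to -0.057 in Foxp3 barcodes of T1, and from 0.33 to -0.083 in T3 barcodes with none of Cd4, Cd8b1 and Trdc. The causes were not tested, except that thinned gates leave germinal centre barcodes in the group outside by construction.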
